A study of Mus musculus with 6 samples.

Results

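Immediate early and activity-regulated genes are genes whose RNA appears soon after a cell receives a stimulus, and in neurons many of them follow synaptic activity. The 36 genes described here were chosen as a list of such genes by symbol: 9 basic leucine zipper factors, 6 EGR and NR4A factors, 7 other transcription regulators, 4 synaptic or secreted effectors and 10 regulators of signalling or RNA. Each was 1 row of a table of 27179 genes, but the row labelled Fosb is annotated away from the start of Fosb, as described below. RNA was sequenced from cerebral cortex of C57BL/6N mouse embryos at E18.5. The CAP1-KO group (libraries FCRE3, FCRE4 and FCRE5) carried floxed Cap1 alleles (flx/flx) with the Nestin-Cre transgene, and the Control group (FF1, FF2 and FF4) carried the same floxed alleles without Cre. Nestin-Cre acts in neural progenitors and their offspring, so blood vessel cells, microglia and meningeal cells keep Cap1, and no group carried Cre without floxed alleles. CAP1 is an actin-binding protein, and the study asks how its loss alters gene expression that depends on SRF and its actin-sensed coactivators, the MRTF proteins. Nothing in the labels says whether embryos shared a litter or a run, so p-values measure the spread between these 6 libraries.

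SRF binds the CArG box and works with either of 2 kinds of partner. MRTF proteins link it to the actin pool and to cytoskeletal genes, whereas TCF proteins such as ELK1 are phosphorylated by ERK and link it to immediate early genes such as Fos and Egr1. Calcium entering an active neuron also reaches many of these genes through the factor CREB, which binds the sequence TGACGTCA or its TGACG core, and its CRTC coactivators. The induced proteins then alter synapses, or shut the signal down again.

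Total reads per library ran from 32443864 to 36302598. Cap1 averaged 85.1 ± 2.0 CPM (reads scaled to the size of the library) in CAP1-KO and 184 ± 16.2 CPM in Control (mean ± SD, n = 3 each), a log2 fold change of -1.10 (SE 0.07, limma adjusted p = 0.000283). Cortical excitatory neuron markers were abundant in every library, and 1 Control library stood apart from the other two. The 7 markers of those neurons (among them Neurod6, Neurod2 and Tbr1) summed to between 1378 and 1531 CPM in CAP1-KO, against 1429 CPM in FF4 and 2053 and 2088 CPM in FF1 and FF2. That sum hides differences between markers. Slc17a7 and Bcl11b lay lower in every CAP1-KO library than in any Control library, FF4 included, and the others overlapped. Slc17a7 averaged 51.5 CPM in CAP1-KO, against 68.7 CPM in FF4. The log2 fold change was -0.78 for Slc17a7 and -0.15 for Bcl11b, and neither passed in limma. The 9 striatal neuron markers summed to between 290.2 and 322 CPM in CAP1-KO, against 336 CPM in FF4 and 185 and 184 CPM in FF1 and FF2. The 7 interneuron markers summed to between 622 and 690.1 CPM in CAP1-KO. Their sum was 675 CPM in FF4 and 469 and 406 CPM in FF1 and FF2. These 7 markers did not move alike: the log2 fold change was -0.05 for Lhx6 and 0.66 for Gad2, and neither passed in limma. Xist, expressed from the inactive X chromosome, was at 2398 to 2653 CPM in CAP1-KO libraries and 2296 CPM in FF2, but 0.577 CPM in FF1 and 2.05 CPM in FF4. Embryo sex was therefore unequal between the groups. In bulk tissue, fewer cells of a type and less RNA per cell cannot be told apart.

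Rgs2, Npas4 and Nptx2 rose in CAP1-KO cortex and 0 members fell. Of the 36 members, 32 had the mean level of at least 1 CPM needed for testing. The test was limma on log2(CPM + 1) over 13885 genes, with Benjamini-Hochberg adjustment and a threshold of 0.05. By that rule 0.562% of all tested genes were higher and 0.403% lower, 0.965% in all, and limma-voom called the same 3 members. At an unadjusted p under 0.05, limma had 7 members higher and 12 lower, against 7.74% and 15.3% of all tested genes. Every CAP1-KO library lay above every Control library for 6 tested members and below for 9, against 11.1% and 14.6% of all tested genes (15 members in all, against 25.6%). The fitted fold change was negative for 20 members and for 51.7% of all tested genes. The median log2 fold change was -0.14 over the tested members and -0.01 over all tested genes, and the fitted values ran from -0.85 (Nr4a3) to 2.10 (Rgs2).

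**Figure D1:**
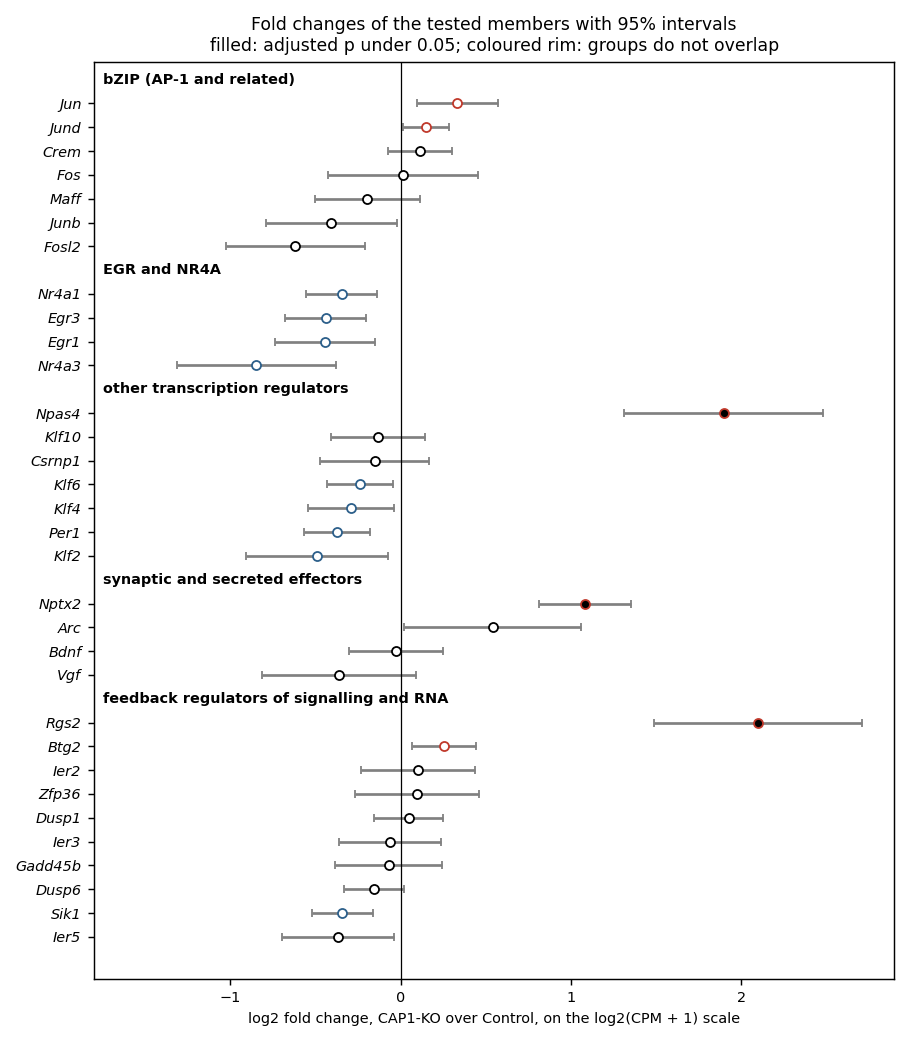
Log2 fold change of CAP1-KO over Control (x axis, log2(CPM + 1) scale) for the 32 tested members, grouped by role, with 95% intervals from limma (n = 3 each). Filled points passed the adjusted threshold, and coloured rims mark members whose groups do not overlap. Rgs2, Npas4 and Nptx2 are the filled points, at 2.10, 1.90 and 1.08.

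Rgs2 had the largest fold change of the tested members. Its product ends signalling through Gq-coupled receptors by speeding GTP hydrolysis on the G protein. Rgs2 (gene number 19735, GRCm38 chromosome 1, 143999338 to 144004161) measured 129, 163 and 126 CPM in FCRE3, FCRE4 and FCRE5, against 25.7, 23.9 and 51 CPM in FF1, FF2 and FF4. All CAP1-KO libraries were higher than all Control libraries, and FF4 was the highest Control. The means were 139 ± 20.9 CPM in CAP1-KO and 33.5 ± 15.1 CPM in Control, a 4.16-fold ratio, with a log2 fold change of 2.10 (SE 0.26, limma adjusted p = 0.0139). CAP1-KO averaged 2.73 times the level of FF4 and 5.62 times the mean of FF1 and FF2. Against FF4 alone, where the lone Control library is assumed to vary as the CAP1-KO libraries do, the log2 fold change was 1.42 (limma adjusted p = 0.00729). The call was lost without FF1, FCRE3 or FCRE5 (log2 fold changes of 1.95, 2.15 and 2.17, limma adjusted p = 0.0842, 0.0630 and 0.0786) and with the Xist level as a covariate (log2 fold change 2.45, limma adjusted p = 0.0904).

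Npas4 was likewise separated between the groups, with FF4 nearest to CAP1-KO. It encodes a transcription factor induced in neurons by calcium entry, and is known for shaping inhibitory synapses. Npas4 (gene number 225872, GRCm38 chromosome 19, 4984355 to 4990316) measured 34.8, 33.6 and 30.8 CPM in FCRE3, FCRE4 and FCRE5, against 6.57, 5.95 and 13.5 CPM in FF1, FF2 and FF4. The lowest CAP1-KO library was above the highest Control library, which was again FF4. Its group means were 33.1 ± 2.04 CPM in CAP1-KO and 8.67 ± 4.17 CPM in Control, with a log2 fold change of 1.90 (SE 0.25, limma adjusted p = 0.0182). CAP1-KO averaged 2.45 times FF4 and 5.28 times the mean of FF1 and FF2. With FF4 as the only Control library, the fold change was 1.23 on the log2 scale (limma adjusted p = 0.00242). The call was lost without FF1, FF2, FCRE3 or FCRE5 (log2 fold changes from 1.70 to 1.94, limma adjusted p between 0.0527 and 0.103) and with the Xist covariate (log2 fold change 2.25, limma adjusted p = 0.0943).

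Nptx2 rose by a smaller factor with a smaller spread. It encodes a secreted pentraxin that gathers AMPA-type glutamate receptors at synapses. Nptx2 (gene number 53324, GRCm38 chromosome 5, 144545902 to 144557478) measured 17.7, 20.4 and 16.4 CPM in FCRE3, FCRE4 and FCRE5, against 7.12, 7.71 and 9.37 CPM in FF1, FF2 and FF4. The groups were separated by a gap wider than the range within Control. Its means were 18.2 ± 2.07 CPM in CAP1-KO and 8.06 ± 1.16 CPM in Control (log2 fold change 1.08, SE 0.12, limma adjusted p = 0.00689). CAP1-KO averaged 1.94 times FF4 and 2.45 times the mean of FF1 and FF2. The call was kept when each library was left out in turn. It was lost against FF4 alone (log2 fold change 0.88, limma adjusted p = 0.0684) and with the Xist covariate (log2 fold change 1.12, limma adjusted p = 0.112). With the Xist covariate 0 members passed in limma, where 0.166% of all tested genes were called higher and 0.0216% lower. Among the Xist-expressing libraries, with FF2 as the only Control, 4 members rose (Arc with these 3) and 6 fell, where 4.51% of all tested genes rose and 8.53% fell. The 3 genes had log2 fold changes of 2.48 (Rgs2), 2.29 (Npas4) and 1.13 (Nptx2).

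**Figure D2:**
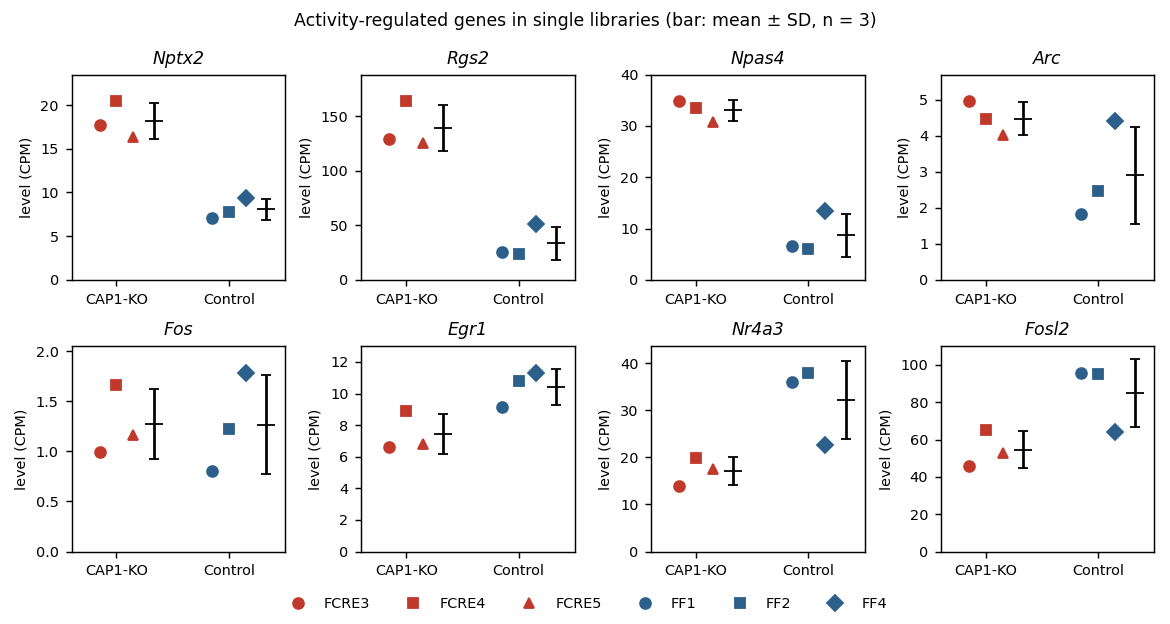
Level in CPM (y axis, from 0) of 8 members in each CAP1-KO library (red) and each Control library (blue), with the mean ± SD of 3 libraries in black. Rgs2, Npas4 and Nptx2 are higher in every CAP1-KO library than in any Control library, Fos overlaps fully, and FF4 (diamond) lies apart from FF1 and FF2 for Rgs2, Npas4, Arc, Nr4a3 and Fosl2.

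Sequence before the start sites is shown for both called members with a RefSeq entry (GRCm38.p6) and for 2 members that did not pass, Nr4a3 and Fos, both textbook CREB targets, so that their letters can be set side by side. Capitals mark the CREB core, TGACG or CGTCA on the other strand. The stretches lie at chr19:4990128-4990157 (Npas4, minus strand, inside GENCODE exons and so held to 30 bases), chr1:144004162-144004399 (Rgs2, minus strand), chr4:48045055-48045152 (Nr4a3, plus strand) and chr12:85473640-85473889 (Fos, plus strand).
Npas4: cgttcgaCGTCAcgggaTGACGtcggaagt
Rgs2: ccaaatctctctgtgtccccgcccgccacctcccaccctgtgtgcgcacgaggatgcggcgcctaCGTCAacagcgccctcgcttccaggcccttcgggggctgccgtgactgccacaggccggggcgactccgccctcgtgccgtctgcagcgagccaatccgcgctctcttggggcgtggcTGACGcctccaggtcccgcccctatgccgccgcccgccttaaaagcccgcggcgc
Nr4a3: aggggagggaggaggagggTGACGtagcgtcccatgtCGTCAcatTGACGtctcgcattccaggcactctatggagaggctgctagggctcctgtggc
Fos: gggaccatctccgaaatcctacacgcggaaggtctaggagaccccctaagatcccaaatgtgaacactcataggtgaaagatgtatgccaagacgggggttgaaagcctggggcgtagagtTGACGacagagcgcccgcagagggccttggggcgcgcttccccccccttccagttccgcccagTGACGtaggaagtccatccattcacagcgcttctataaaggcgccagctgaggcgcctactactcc

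The core was found in members with fold changes of either sign. Npas4, Rgs2 and Fos hold 2 cores each in the stretches shown and Nr4a3 holds 3, beside log2 fold changes of 1.90, 2.10, 0.01 and -0.85. Of 27 members with a RefSeq promoter, 18 (66.7%) held the core on either strand within 250 bases before a start site, against 30.4% of 10781 tested genes and 19.8% of 27025 genes with a promoter. The full site TGACGTCA, which contains the core, was in 3 members (Btg2, Dusp1 and Maff), or 11.1%, against 3.12% of tested genes. The CArG box was in Egr2 and Zfp36, or 7.41% of members with a promoter, against 1.42% of tested genes. Fos had no box within its 250 bases, and sites farther from a start were not searched. The 9 members without a RefSeq window were not searched: Egr1, Egr3, Arc, Nptx2, Vgf, Sik1, Crem, Klf10 and Ier2. The AP-1 site, TGACTCA or TGAGTCA, was in Csrnp1 alone, or 3.70%, against 3.60% of tested genes. Of the members, 5 had more than 1 start site and so more than 1 window, and a match is a description of letters, not of binding.

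Of the other effectors, Arc was the one that passed without FF4. Arc promotes the removal of AMPA receptors from synapses. It measured 4.96, 4.46 and 4.02 CPM in FCRE3, FCRE4 and FCRE5, against 1.83, 2.47 and 4.41 CPM in FF1, FF2 and FF4. FF4 lay within the CAP1-KO range, so the groups overlap, and the log2 fold change of 0.54 did not pass (95% interval 0.02 to 1.06, limma adjusted p = 0.201). CAP1-KO averaged 1.02 times FF4 and 2.08 times the mean of FF1 and FF2, and Arc passed without FF4 (log2 fold change 0.80, limma adjusted p = 0.00269). Bdnf, a neurotrophin that supports synapses and survival, measured 3.38, 3.74 and 3.12 CPM in FCRE3, FCRE4 and FCRE5, against 3.49, 2.98 and 4.05 CPM in FF1, FF2 and FF4. Its groups overlapped fully, and its log2 fold change was -0.03 (95% interval -0.30 to 0.25), turning to 0.02 when libraries were scaled to total reads and to 0.06 without FF4. Vgf, the precursor of secreted neuropeptides, averaged 19.1 ± 5.04 CPM in CAP1-KO and 24.7 ± 5.46 CPM in Control and did not pass (limma adjusted p = 0.312). CAP1-KO averaged 0.617 times FF4 and 0.888 times the mean of FF1 and FF2 for Vgf.

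The 7 tested leucine zipper genes, Fos among them, gave 0 past the threshold in limma and in limma-voom. At an unadjusted limma p under 0.05, 2 were higher and 2 lower, against 7.74% and 15.3% of all tested genes. AP-1 is a dimer of FOS and JUN proteins, and Fos is the member most used as a mark of recent neuronal activity. Fos measured 0.992, 1.66 and 1.17 CPM in FCRE3, FCRE4 and FCRE5, against 0.802, 1.22 and 1.78 CPM in FF1, FF2 and FF4. The ranges overlapped almost entirely, and the log2 fold change was 0.01 with a 95% interval of -0.42 to 0.45 on the log2(CPM + 1) scale, which understates changes at such low levels. Jun, the main partner of FOS, measured 61.9, 52.4 and 54.0 CPM in CAP1-KO libraries in the same order, against 50.6, 43.7 and 39.0 CPM in Control libraries. Its groups did not overlap, but its log2 fold change of 0.33 did not pass (limma adjusted p = 0.126). Jund, a JUN protein present in resting cells, measured 144, 131 and 135 CPM in CAP1-KO libraries, against 131.1, 120 and 119 CPM in Control libraries. Its groups were separated by less than 1 CPM, the log2 fold change was 0.15 (limma adjusted p = 0.180), and 52.6% of its annotated exon bases overlap an antisense gene.

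Fosl2 and Junb lay lower in most CAP1-KO libraries without passing. Fosl2, a FOS-related subunit, measured 45.8, 65.1 and 53.1 CPM in FCRE3, FCRE4 and FCRE5, against 95.7, 95.1 and 64.1 CPM in FF1, FF2 and FF4. FF4 sat inside the CAP1-KO range, and the log2 fold change of -0.62 did not pass (95% interval -1.03 to -0.21, limma adjusted p = 0.113). Without FF4 it passed, at -0.81 (limma adjusted p = 0.00154). Junb averaged 3.89 ± 1.18 CPM in CAP1-KO and 5.38 ± 0.423 CPM in Control (limma adjusted p = 0.196). Crem, whose short form represses CREB targets, averaged 11.5 ± 0.489 and 10.6 ± 0.866 CPM in CAP1-KO and Control, and Maff, a small MAF protein, averaged 2.80 ± 0.302 and 3.37 ± 0.667 CPM. Neither passed (limma adjusted p = 0.444 for Crem and 0.421 for Maff).

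The 4 tested EGR and NR4A genes lay lower in every CAP1-KO library than in any Control library, against 14.6% of all tested genes. All 4 had an unadjusted limma p under 0.05, where 15.3% of all tested genes were lower. After adjustment 0 of the 4 passed in limma, and limma-voom called none either. Egr2 and Egr4, below the level for testing, averaged 0.742 and 0.723 CPM in CAP1-KO and 0.530 and 0.971 CPM in Control. EGR proteins are zinc finger factors induced through SRF and TCF, and NR4A proteins are nuclear receptors induced through CREB. Egr1 measured 6.59, 8.89 and 6.79 CPM in FCRE3, FCRE4 and FCRE5, against 9.14, 10.8 and 11.3 CPM in FF1, FF2 and FF4. Its log2 fold change was -0.44 (SE 0.13, limma adjusted p = 0.113). Here FF4 was the Control library farthest from CAP1-KO, unlike its place for Rgs2 or Npas4. Egr3, known for its role in muscle spindle development, measured 2.12, 2.46 and 2.71 CPM in CAP1-KO libraries, against 3.56, 3.75 and 3.63 CPM in Control libraries. The Control libraries were close to each other, and the log2 fold change was -0.44 (limma adjusted p = 0.0907).

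Nr4a1 measured 7.05, 7.81 and 7.69 CPM in FCRE3, FCRE4 and FCRE5, against 9.04, 9.62 and 10.8 CPM in FF1, FF2 and FF4. FF4 was again the highest Control, and the log2 fold change was -0.34 (limma adjusted p = 0.103). Nr4a3 measured 14.02, 19.9 and 17.6 CPM in CAP1-KO libraries, against 35.9, 37.9 and 22.6 CPM in Control libraries. All CAP1-KO values were below FF4, which was well below FF1 and FF2. The means of 17.2 ± 2.95 CPM in CAP1-KO and 32.1 ± 8.32 CPM in Control gave a log2 fold change of -0.85 (SE 0.20, limma adjusted p = 0.0915), and without FF4 it passed at -1.07 (limma adjusted p = 0.000562). CAP1-KO averaged 0.759 times FF4 and 0.465 times the mean of FF1 and FF2.

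Among the other transcription regulators, Npas4 alone passed, and Per1, Klf2, Klf4 and Klf6 were lower in every CAP1-KO library than in any Control library. Per1, a repressor in the circadian clock that is also induced through CREB, measured 33.9, 37.9 and 33.4 CPM in FCRE3, FCRE4 and FCRE5, against 48.9, 47.5 and 40.8 CPM in FF1, FF2 and FF4. The groups did not overlap, and the log2 fold change was -0.37 (SE 0.08, limma adjusted p = 0.0839). Klf6, a zinc finger factor of neurite growth, measured 88.3, 92.8 and 94.4 CPM in CAP1-KO libraries, against 113, 119 and 94.8 CPM in Control libraries. FF4 lay less than 1 CPM above the highest CAP1-KO library (log2 fold change -0.24, limma adjusted p = 0.153). Klf10 and Csrnp1 overlapped between groups, at 15.4 ± 2.68 CPM in CAP1-KO and 16.8 ± 0.593 CPM in Control for Klf10 and 1.43 ± 0.256 and 1.70 ± 0.332 CPM for Csrnp1.

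Klf2 and Klf4 were low in all libraries and lower in CAP1-KO. Both are zinc finger factors that blood flow induces in endothelium. Klf2 measured 2.68, 3.07 and 2.07 CPM in FCRE3, FCRE4 and FCRE5, against 5.45, 3.66 and 3.26 CPM in FF1, FF2 and FF4 (log2 fold change -0.49, limma adjusted p = 0.163). Klf4 measured 2.25, 2.69 and 2.51 CPM in CAP1-KO libraries, against 3.46, 2.86 and 3.47 CPM in Control libraries (log2 fold change -0.29, limma adjusted p = 0.169). Neither set of libraries overlapped between groups. The 9 endothelial markers summed to between 133 and 150.1 CPM in CAP1-KO and between 168 and 188 CPM in Control. Of those markers 5 lay lower in every CAP1-KO library, against 14.6% of all tested genes. The limma test called 2 of them lower (Flt1 and Kdr), against 0.403% of all tested genes. The part of the endothelial markers in the KLF values was not tested.

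Of the 10 regulators of signalling and RNA, Rgs2 rose and the other nine did not pass. Sik1, a kinase that keeps the CRTC coactivators of CREB out of the nucleus, measured 42.8, 45.4 and 42.1 CPM in FCRE3, FCRE4 and FCRE5, against 59.4, 57.7 and 49.2 CPM in FF1, FF2 and FF4. CAP1-KO lay below Control throughout, with a log2 fold change of -0.34 (SE 0.08, limma adjusted p = 0.0853). Btg2, which slows division and promotes RNA decay, measured 24.9, 21.5 and 23.6 CPM in CAP1-KO libraries, against 21.2, 18.3 and 18.7 CPM in Control libraries. The groups were separated by 1 pair of close libraries, FCRE4 and FF1 (log2 fold change 0.26, limma adjusted p = 0.132). Ier5 averaged 47.7 ± 5.0 CPM in CAP1-KO and 62.4 ± 11.8 CPM in Control (limma adjusted p = 0.178), with FF4 at 48.8 CPM.

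The phosphatases that switch off MAP kinases gave values close between groups. Dusp1 averaged 20.9 ± 2.18 CPM in CAP1-KO and 20.1 ± 1.23 CPM in Control (log2 fold change 0.05, 95% interval -0.15 to 0.25). Dusp6, which acts on ERK, averaged 32.8 ± 1.90 CPM in CAP1-KO and 36.8 ± 3.19 CPM in Control (log2 fold change -0.16, 95% interval -0.33 to 0.02). Zfp36, which binds AU-rich RNA and speeds its decay, Gadd45b, Ier2 and Ier3 had log2 fold changes between -0.07 and 0.10 and adjusted p values in limma between 0.706 and 0.808. Their levels ran from 1.26 CPM (Gadd45b) to 7.36 CPM (Ier2) in CAP1-KO, and the 95% interval of Ier2 reached from -0.23 to 0.44.

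The 4 members below the level for testing are given as reads with exact 95% Poisson intervals that cover counting error only. Atf3, a stress-induced leucine zipper factor, had 27, 27 and 24 reads in FCRE3, FCRE4 and FCRE5, against 10, 11 and 21 in FF1, FF2 and FF4. The 3 CAP1-KO libraries exceeded the Control ones, at 0.724 CPM (0.572 to 0.904) in CAP1-KO and 0.429 CPM (0.309 to 0.580) in Control, and FF4 was again nearest to CAP1-KO. Egr2 had 27, 30 and 23 reads in CAP1-KO libraries, against 14, 14 and 24 in Control libraries. Egr4 had 24, 34 and 20 reads in CAP1-KO libraries, against 14, 31 and 51 in Control libraries. The row labelled Fosb had 10, 5 and 4, against 3, 6 and 13. That row carries gene number 232941, annotated at chromosome 7, 19276805 to 19280064. The RefSeq start window of Fosb lies outside that span, at 19310046 to 19310295. The row is therefore not taken as a measure of Fosb, whose level is not known from it. FF4 held the most reads of the Control libraries for all 4 genes. The group intervals overlapped for each of the 4, for Atf3 by less than 0.01 CPM. Overlap of such intervals does not test a difference between groups. Without the filter on low values none of the 4 passed (limma adjusted p between 0.195 and 0.800).

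The place of FF4 differed from gene to gene. Among the 32 tested members, FF4 was the Control library closest to the CAP1-KO mean for 17 (53.1%), against 55.4% of all tested genes. It lay between FF1 and FF2 on one side and all CAP1-KO libraries on the other for 8 members, against 17.4% of all tested genes. For Rgs2 and Npas4 it covered part of the distance, at 2.06 and 2.15 times the mean of FF1 and FF2. For Arc, Fosl2 and Ier5 it lay inside the CAP1-KO range. For Egr1 and Nr4a1 it lay on the far side.

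Without FF4, 4 members rose and 9 fell in limma, where 9.31% of all tested genes rose and 18.9% fell. The 4 that rose were Rgs2, Npas4, Nptx2 and Arc, and the 9 that fell were Fosl2, Egr3, Nr4a1, Nr4a3, Klf2, Klf6, Per1, Sik1 and Ier5. Against FF4 alone, 2 rose (Rgs2 and Npas4) and 0 fell, where 0.310% of all tested genes rose and 0.0864% fell. The summed cortical, striatal and interneuron markers of FF4 were nearer to those of CAP1-KO libraries than to those of FF1 and FF2, and their part in the values of the members was not tested. CAP1-KO averaged 2.73 times the level of FF4 for Rgs2 and 2.45 times for Npas4.

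**Figure D3:**
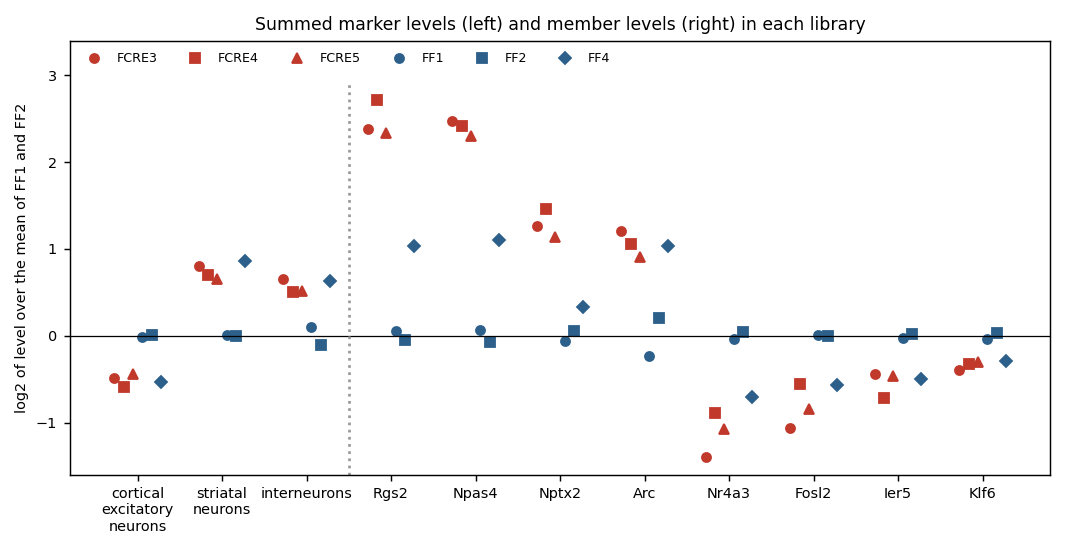
Log2 of each library's level over the mean of FF1 and FF2 (y axis) for 3 summed marker lists (left of the dotted line) and 8 members (right), with CAP1-KO libraries in red and Control libraries in blue. FF4 (diamond) lies with the CAP1-KO libraries for the marker sums and for Arc, Fosl2 and Ier5, and clearly below them for Rgs2, Npas4 and Nptx2.

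Markers of other cell types also differed between groups. Microglial markers (8 genes) summed to between 49.1 and 63.7 CPM in CAP1-KO and between 31.7 and 42.9 CPM in Control. Choroid plexus markers (7 genes, mostly reads of Ttr) summed to between 52.9 and 115 CPM in CAP1-KO and between 1.19 and 5.14 CPM in Control. Meningeal fibroblast markers (8 genes) summed to 54.3, 149 and 134 CPM in FCRE3, FCRE4 and FCRE5, and to between 53.1 and 57.5 CPM in Control. FCRE4 was the highest CAP1-KO library for these markers and for Rgs2, Nptx2, Fos and Egr1, but not for Npas4. FCRE3, with meningeal markers inside the Control range, had 129 CPM of Rgs2, 34.8 CPM of Npas4 and 17.7 CPM of Nptx2. Its choroid plexus markers summed to 100 CPM and its microglial markers to 49.1 CPM, both above every Control library. The part of these cell types in the values of the members was not tested. Red blood cell markers (3 genes found) overlapped, at 118 to 210 CPM in CAP1-KO and 130 to 137 CPM in Control.

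Levels of different genes can be compared once divided by exon length, here the merged exons of GENCODE. Jund led in both groups, at 82.0 CPM per kb in CAP1-KO and 73.8 CPM per kb in Control. Rgs2 ranked 2 of 36 in CAP1-KO at 38.4 CPM per kb, and 7 of 36 in Control at 9.25 CPM per kb. Npas4 ranked 9 in CAP1-KO at 7.99 CPM per kb and 21 in Control at 2.10 CPM per kb. Nptx2 ranked 10 in CAP1-KO at 7.17 CPM per kb and 16 in Control at 3.18 CPM per kb. Arc, Fos and Bdnf were lower, with Arc at 1.47 CPM per kb in CAP1-KO and 0.950 in Control, Fos at 0.541 and 0.539, and Bdnf at 0.549 and 0.564.

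**Figure D4:**
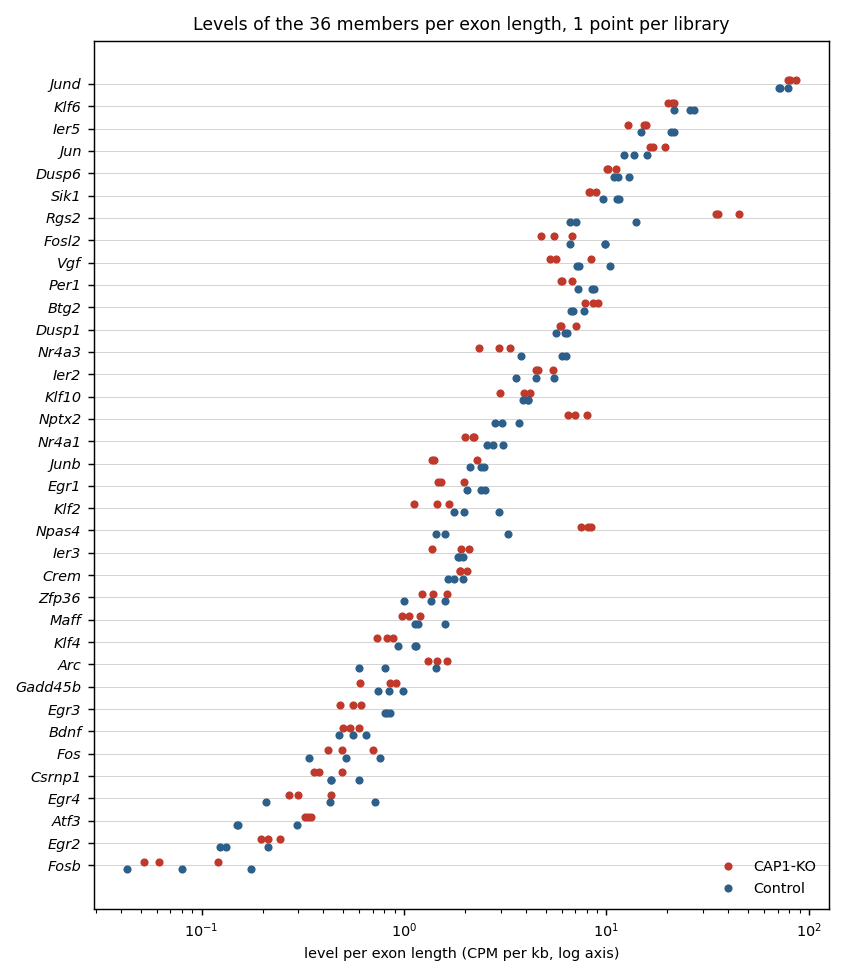
Level per exon length (x axis, CPM per kb, log scale) of all 36 members, sorted by the Control mean, with 1 point per CAP1-KO library (red) and per Control library (blue). Rgs2, Npas4 and Nptx2 are the genes whose red points stand clear to the right, and Egr2, Atf3 and the row labelled Fosb are the lowest.

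A second list of 56 activity-regulated genes shares no gene with the members. In limma it gave 0 genes past the threshold in either direction among the 51 tested, and limma-voom called 0. At an unadjusted limma p under 0.05, 5 were higher and 16 lower, against 7.74% and 15.3% of all tested genes. The 2 of highest level were Arf4, a small GTPase, at 255 ± 9.78 CPM in CAP1-KO and 259 ± 14.6 CPM in Control, and Plk2, a kinase that weakens active synapses, at 221 ± 4.10 CPM in CAP1-KO and 244 ± 4.38 CPM in Control (limma adjusted p = 0.119). The median log2 fold change was -0.09, and 13 of the 51 genes lay lower and 4 higher in every CAP1-KO library, against 14.6% and 11.1% of all tested genes. Nr4a2, the third NR4A gene, was chosen after its values were seen and followed Nr4a3. It measured 41.9, 51.4 and 51.2 CPM in FCRE3, FCRE4 and FCRE5, against 91.6, 95.8 and 56.9 CPM in FF1, FF2 and FF4 (log2 fold change -0.71, limma adjusted p = 0.107). Without FF4, 4 genes of this list rose and 20 fell, where 9.31% of all tested genes rose and 18.9% fell.

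Of 36 regulators that act upstream of these genes, 1 rose and 0 fell in limma, against 0.562% and 0.403% of all tested genes. At an unadjusted limma p under 0.05, 3 were higher and 16 lower, against 7.74% and 15.3% of all tested genes. The limma-voom test called 0 lower. The 1 that rose was Srf itself. It measured 97.8, 111 and 104 CPM in FCRE3, FCRE4 and FCRE5, against 65.8, 68.4 and 59.4 CPM in FF1, FF2 and FF4 (log2 fold change 0.69, SE 0.07, limma adjusted p = 0.00515). Its CAP1-KO libraries all stood far above Control, and FF4 was the lowest Control. The call was lost without FCRE5 (log2 fold change 0.69, limma adjusted p = 0.0513) and with the Xist covariate (log2 fold change 0.61, limma adjusted p = 0.123). Of the other regulators, 15 lay lower and 2 higher in every CAP1-KO library, against 14.6% and 11.1% of all tested genes, and the list's median was -0.15. Without FF4, 2 of the 36 rose and 17 fell, beside the all-gene shares of 9.31% and 18.9%.

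The authors' deposited table gives 1 of the 36 members at an FDR under 0.05, which is Nptx2 (log2 fold change 1.17, FDR 0.00130). Of all 27179 genes in the authors' deposited table, 109 (0.401%) are higher and 112 (0.412%) lower at that FDR. The next lowest FDRs among members in the authors' deposited table are those of Per1 (log2 fold change -0.38, FDR 0.0585) and Sik1 (-0.35, FDR 0.0617). The authors' deposited table lists Npas4 at 1.93 (FDR 0.101) and Rgs2 at 2.05 (FDR 0.117), so the calls of Npas4 and Rgs2 differ from the limma fit.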

How the data were processed

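Per the labels' protocols, total RNA was DNase-treated, selected for poly(A) and made into directional libraries. Per the submitters' processing notes, STAR, edgeR, GRCm38 and mm10 were named, with no versions. For the read counter, its strand setting and the annotation the entry is "not given in the sources used here", so reads of 8 members that overlap a gene on the opposite strand are uncertain. The values of each library are log2 normalized counts, per the file headers, and the authors added their own log2 fold change, F score, p-value and FDR. Library columns were grouped by the genotype in their names (FF, FCRE). Their numbers differ from the replicate numbers of the labels.

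After the shared offset (0.0584 CPM) was removed, 100% of low values came within 0.01 of a whole read, at 31.2 to 37.3 reads per CPM. Poisson intervals cover counting error only, and limma intervals the spread between libraries. The test was limma (version 3.58.1, run under R 4.3.3) on log2(CPM + 1), using its intensity trend and Benjamini-Hochberg adjustment over every gene that averaged 1 CPM or more. These fold changes understate the change of low genes. Groups of 3 and 3 cannot give an exact permutation p below 0.1. Recovered reads were tested with limma-voom as an alternative. The fit was tested on simulated data. Members, lists and tests were chosen with earlier results of these data known. Named with values in each library were members past the threshold, those whose groups did not overlap, and Fos, Arc, Egr1 and Bdnf; Fosl2 and the untested members were added after their values were seen. From the other lists, genes past the threshold were named, or the 2 of highest level. A cortical marker of the chosen list is not reported here and is left out of its sum. Promoters came from RefSeq and exon lengths from GENCODE. Figures were drawn with matplotlib 3.10.9.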

Additional observations from a re-analysis of the deposited data

How the results depend on the processing

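Each fit was repeated under 16 alternatives, of which the Xist-expressing libraries alone, FF4 alone and the deposited log2 values were chosen after seeing the data. The edgeR test was not run, and limma-voom was the test applied to recovered reads. No paired analysis was possible because the labels give no pairing of CAP1-KO with Control embryos. Relative log expression factors, total reads, limma-voom, the deposited log2 values, a pseudocount of 0.1 and no filter each gave the same 3 members higher. In each of these 0 members were lower. The deposited log2 values hold the same CPM, with an offset of 0.0584 CPM in place of 1 CPM. Recomputed TMM factors matched the deposited scaling (0.912 for FF1 in both), so that refit could only repeat the main fit. No filter gave 20 genes lower in all. Limits lie in single libraries and in embryo sex. The cause was not tested.

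With the Xist covariate, 23 genes rose and 3 fell, with 0 members, and 0 upstream regulators rose. Among the Xist-expressing libraries (FF2 as the only Control), 626 rose and 1185 fell, with 4 members higher and 6 lower, 3 and 13 of the second list, and 2 and 8 of the upstream regulators, and 16 members lay below in every library. Against FF4 alone 43 genes rose and 12 fell, and the members' median was -0.053. Leaving out 1 library in turn gave 33 to 1292 genes higher and 3 to 2622 lower, 1 to 4 members higher and 0 to 9 lower, 0 to 4 and 0 to 20 of the second list, and 0 to 2 and 0 to 17 upstream regulators. It gave 6 to 8 members above and 9 to 13 below, a member median of -0.17 to -0.08, and a Cap1 log2 fold change of -1.18 to -1.06. Without FF4 the counts of calls were the highest of these.

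Uncalled members changed sign in some settings. With the Xist covariate Fos was -0.0044, Bdnf 0.14, Dusp1 -0.0075 and Ier2 -0.15. In the Xist-expressing libraries Bdnf was 0.15, Dusp1 -0.013 and Ier2 -0.16. Against FF4 alone Fos was -0.30, Crem -0.0018 and Gadd45b 0.044. With total reads Bdnf was 0.024. Leaving out 1 library moved Fos over -0.14 to 0.17, Klf10 over -0.23 to 0.0049, Bdnf over -0.11 to 0.059, Dusp1 over -0.033 to 0.095, Zfp36 over -0.052 to 0.22, Gadd45b over -0.13 to 0.027, Ier2 over -0.033 to 0.24 and Ier3 over -0.14 to 0.055.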
